A study of Mus musculus with 6 samples.

Results

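The genes for the proteins of the cytosolic ribosome were examined in mouse dorsal root ganglia (DRGs), the clusters of sensory nerve cell bodies beside the spinal cord. Members were chosen by symbol. They are the rows of the count table named *Rpl* or *Rps* with a number and at most an a, x, or l after it, plus *Rplp0*, *Rplp1*, *Rplp2*, and *Rpsa*. Rows with the ending -ps, which marks pseudogenes, were left out. This gave 82 of the 48440 rows in the table, of which 32 belong to the small subunit, 47 to the large subunit, and 3 to the stalk. The study asked which genes change in the DRG when *NIS-lncRNA*, a long noncoding RNA, is overexpressed there. The L3/4 DRGs on 1 side of wild-type male mice were microinjected with a serotype 5 adeno-associated virus. In 3 libraries it carried *Gfp*, for green fluorescent protein (AAV5-*Gfp*, the control), and in the other 3 a mixture of viruses carried both variants of *NIS-lncRNA* (AAV5-*V1+V2*, labelled NIS V1 and V2). All 6 libraries therefore come from tissue that had received an injection and a virus, and the virus preparation differs along with the group. The promoter that drives the virus is not given in the sources used here. The text deposited with the data gives both 5 weeks (collection) and 4 weeks (comparison) after microinjection. It does not say whether each library is a separate mouse or a pool of mice, so that p-values measure only the spread between these libraries, which may be technical. Total RNA was sequenced with stranded libraries, and total counts ranged from 32025612 to 34764282 per library.

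Ribosomes translate mRNA into protein. Their small subunit holds and decodes the mRNA, their large subunit joins amino acids, and the stalk of the large subunit recruits translation factors. Each ribosome holds a copy of nearly every ribosomal protein, and in vertebrates these proteins are encoded by short, intron-containing genes that are active in all cells. Their mRNAs begin with a C followed by a run of pyrimidines, the 5′ terminal oligopyrimidine tract, through which the mTOR pathway sets their translation together. Processed pseudogenes, which are copies of these mRNAs inserted elsewhere in the genome, are numerous. In sensory neurons, local translation in the axon has been linked to injury responses and regrowth.

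The start of these genes was read from the promoter table of RefSeq (GRCm38.p6), which held 60 of the 82 members. A tract was counted where a C was followed by at least 4 further bases, all C or T, with the C within 5 bases of the annotated start, on the gene's strand. It was found in 28 of the 60 members (46.7%), against 5718 of all 27025 genes in the table (21.2%). With the C at the start base itself followed by 4 pyrimidines, the counts were 13 members (21.7%) and 813 genes (3.01%). The windows below span 15 bases before and 15 from the start on, with the tract in capitals. They were chosen after their values were seen, as examples and not as the extremes. *Rps27*, *Rplp2*, *Rps15a*, and *Rps21* have a tract and larger estimated fold changes, and *Rps6*, *Rpl35*, and *Rpl14* have a tract and smaller ones. *Rps12* and *Rps3* are called members in which no tract was counted. The *Rps12* window does end in a run of pyrimidines, but that run begins more than 5 bases after the annotated start.
Rps27 (chr3:90213634-90213663, minus strand): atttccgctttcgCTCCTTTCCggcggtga
Rplp2 (chr7:141447636-141447665, plus strand): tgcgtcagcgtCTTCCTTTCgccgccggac
Rps15a (chr7:118116133-118116162, minus strand): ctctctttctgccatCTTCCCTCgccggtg
Rps21 (chr2:180257364-180257393, plus strand): taccgaggacccgCCCTCCTgcccaatagt
Rps6 (chr4:86857353-86857382, minus strand): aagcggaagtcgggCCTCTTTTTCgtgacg
Rpl35 (chr2:39005117-39005146, minus strand): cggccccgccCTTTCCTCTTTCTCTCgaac
Rpl14 (chr9:120571502-120571531, plus strand): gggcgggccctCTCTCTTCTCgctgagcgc
Rps12 (chr10:23787195-23787224, minus strand): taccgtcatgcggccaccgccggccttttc
Rps3 (chr7:99483695-99483724, minus strand): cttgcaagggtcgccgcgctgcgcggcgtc

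As a group, the ribosomal protein genes were higher with AAV5-*V1+V2*, by a small and similar step in most members. Their share of all counts was 0.533%, 0.523%, and 0.481% in AAV5-*Gfp* replicates 1, 2, and 3 (0.512% ± 0.0276, SD, n = 3). It was 0.702%, 0.655%, and 0.593% in AAV5-*V1+V2* replicates 1 to 3 (0.650% ± 0.0544), a difference of 0.138 percentage points and a ratio of 1.27. All 3 AAV5-*V1+V2* libraries lay above all 3 controls. Small subunit genes took 0.184% to 0.202% of counts in the controls and 0.230% to 0.281% with AAV5-*V1+V2*. Large subunit genes took 0.263% to 0.292% and 0.322% to 0.370%, and the stalk genes 0.0337% to 0.0384% and 0.0413% to 0.0501%.

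**Figure D1:**
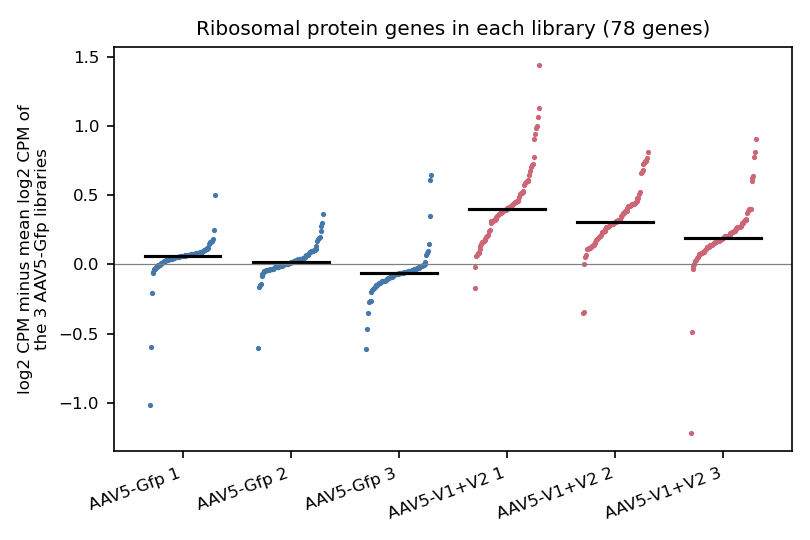
Each point is 1 of the 78 ribosomal protein genes tested, and the y axis gives its log2 CPM (counts per 1000000) in a library minus its mean log2 CPM in the 3 AAV5-*Gfp* libraries. The black lines, the medians over genes, stood at 0.06, 0.01, and -0.07 in the controls and at 0.40, 0.31, and 0.19 in AAV5-*V1+V2* replicates 1 to 3.

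Of the 82 members, 78 passed the filter on low counts and were tested. With edgeR's quasi-likelihood test at a Benjamini-Hochberg adjusted p under 0.05 over 18593 genes, 32 of the 78 (41.0%) were higher with AAV5-*V1+V2*, against 10.1% of all genes tested. None of the 78 was lower, also at an unadjusted p under 0.05, by DESeq2, and by limma-voom (0 each). Of all genes, 5.27% were lower by edgeR at an adjusted p under 0.05 and 15.5% at an unadjusted p under 0.05. DESeq2 had 1606 and limma-voom 842 of the 18593 genes lower. At an unadjusted p under 0.05, 58 were higher, against 19.2% of all genes. The estimated log2 fold change was above 0 for 76 of the 78 (all genes, 50%), with a median of 0.31, which is 1.24-fold, and quartiles of 0.23 and 0.42. The median over all genes was 0.00. The steps were small. No member reached a 2-fold difference, 10 were over 0.5 on the log2 scale, and 51 lay between 0.2 and 0.5. In 60 of the 78, the lowest AAV5-*V1+V2* library exceeded the highest control (all genes, 23.4%), none was separated the other way (all genes, 22%), and in 18 the groups overlapped.

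The number of calls changed in most fits with a library left out and with 1 model choice. Without AAV5-*Gfp* replicate 1, 2, or 3, edgeR called 0 members (56, 50, and 47 at an unadjusted p under 0.05, all higher), while calls over all genes dropped from 1872 higher and 980 lower to 257 and 59, 12 and 0, and 15 and 0. Without AAV5-*V1+V2* replicate 1, 2, or 3, edgeR called 30, 2 (*Rps12* and *Rpl12*), and 43 members. The median log2 fold change of the members stayed between 0.26 and 0.37 in all 6 of these fits. An offset fitted to transcript length and GC content left 5 members higher (*Rpl12*, *Rpl3*, *Rpl5*, *Rps12*, and *Rps20*) and 2 lower (*Rps15* and *Rpl41*). Its median was 0.08 for the members and -0.10 for all genes, so that the members stood 0.18 above all genes in place of 0.31.

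RNA of leukocyte markers was also higher in the same libraries. *Ptprc*, which encodes CD45 on all leukocytes, was at 39.9, 27.8, and 26.0 CPM in AAV5-*Gfp* replicates 1 to 3 and was at 362, 162, and 140 CPM in AAV5-*V1+V2* replicates 1 to 3. Within each group its order over the libraries was the same as that of the share of counts on ribosomal protein genes. The summed level of 9 macrophage markers was 117 to 164 CPM in the controls and 255 to 466 CPM with AAV5-*V1+V2* (8 of 9 higher, against 10.1% of all genes). For 9 T and natural killer cell markers it was 3.55 to 9.36 and 35.5 to 79.5 CPM (7 of 9 higher), and for 7 B and plasma cell markers 18.6 to 26.4 and 232 to 317 CPM (7 of 7 higher). The 12 neuronal markers summed to 10258 to 11106 CPM in the controls and to 6615 to 9596 CPM with AAV5-*V1+V2*, with 1 of 12 lower and a median log2 fold change of -0.31. The ranges of the groups overlapped for satellite glia (6 markers, 2559 to 2876 and 2484 to 2845 CPM), Schwann cells (8 markers, 3498 to 4278 and 3668 to 4057 CPM), erythrocytes (4 markers, 887 to 1064 and 827 to 1243 CPM), and skeletal muscle (6 markers, 24.8 to 374 and 9.91 to 111 CPM). No marker was at 0 in all libraries, and the neuronal and glial markers of a DRG were present in each. The part of these cell types in the levels of the ribosomal protein genes was not tested, and in bulk tissue fewer cells of a type and less RNA per cell cannot be told apart.

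In the small subunit, 31 of the 32 members were tested, and 15 rose and none fell (26 higher and 0 lower at an unadjusted p under 0.05, and 24 and 0 by DESeq2). Their median log2 fold change was 0.34. *Rps12*, whose protein lies in the head of the subunit, was at 14.6, 12.6, and 12.0 CPM in AAV5-*Gfp* replicates 1 to 3 and was at 28.5, 21.7, and 20.3 CPM in AAV5-*V1+V2* replicates 1 to 3. Replicate 1 was the highest library in each group and the groups were far apart. The log2 fold change was 0.85 ± 0.15 (SE, adjusted p = 0.0174, edgeR), 1.80-fold, the largest among called members. *Rps12* is on chromosome 10 (23785183 to 23787275, minus strand, GRCm38).

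*Rps27a* (chromosome 11, 29545846 to 29548109) is translated as a fusion of ubiquitin with a small subunit protein. It was at 12.6, 12.6, and 10.3 CPM in the controls and at 23.4, 20.7, and 15.5 CPM with AAV5-*V1+V2*, a log2 fold change of 0.75 ± 0.16 (adjusted p = 0.0286). *Rps13* was at 28.8, 28.0, and 25.2 CPM and at 45.2, 39.1, and 34.3 CPM (0.53 ± 0.11, adjusted p = 0.0267). In both genes the AAV5-*V1+V2* libraries spread more than the controls did. *Rps20* (chromosome 4, 3831334 to 3835665), another protein of the head, rose from 67.9, 68.2, and 63.9 CPM to 99.4, 91.0, and 82.2 CPM (0.45 ± 0.08, adjusted p = 0.0193). *Rps7* had a smaller and very even step, from 70.8, 69.5, and 66.2 CPM to 86.5, 84.3, and 83.1 CPM (0.30 ± 0.06, adjusted p = 0.0230).

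*Rps3* (chromosome 7, 99477896 to 99483738) encodes a protein at the entry of the mRNA channel. It was at 130, 124, and 121 CPM in the controls and at 196, 163, and 151 CPM with AAV5-*V1+V2* (0.44 ± 0.10, adjusted p = 0.0338). *Rps27*, for a zinc finger protein of the small subunit, had the highest estimate of all members but missed the threshold, with 4.99, 5.31, and 3.17 CPM in the controls and 11.9, 6.94, and 7.52 CPM with AAV5-*V1+V2* (0.96 ± 0.27, adjusted p = 0.0510). Here AAV5-*V1+V2* replicate 1 was well above the other two. Its counts were low for a ribosomal protein gene, between 99 and 391 per library.

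Several small subunit genes known from human disease or signalling were not called. *Rps19* and *Rps14*, whose loss causes Diamond-Blackfan anemia and the anemia of the 5q- syndrome, respectively, had log2 fold changes of 0.49 ± 0.14 (adjusted p = 0.0534) and 0.30 ± 0.09 (adjusted p = 0.0642). *Rpsa*, also known as the laminin receptor, was at 175, 195, and 179 CPM in the controls and at 245, 233, and 203 CPM with AAV5-*V1+V2* (0.31 ± 0.09, adjusted p = 0.0587). *Rps6*, the substrate of S6 kinase, was at 104, 97.9, and 92.0 CPM and at 116, 106, and 107 CPM (0.16 ± 0.07, adjusted p = 0.159). In each of these 4 genes the groups did not overlap. At the low end, *Rps15*, for a protein near the decoding site, was at 103, 96.9, and 96.8 CPM and at 111, 104, and 96.8 CPM (0.07 ± 0.07, adjusted p = 0.529). *Rps26* was at 48.6, 42.2, and 49.96 CPM and at 49.5, 46.9, and 46.5 CPM (0.02 ± 0.08, adjusted p = 0.867). Both sets of libraries overlapped.

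**Figure D2:**
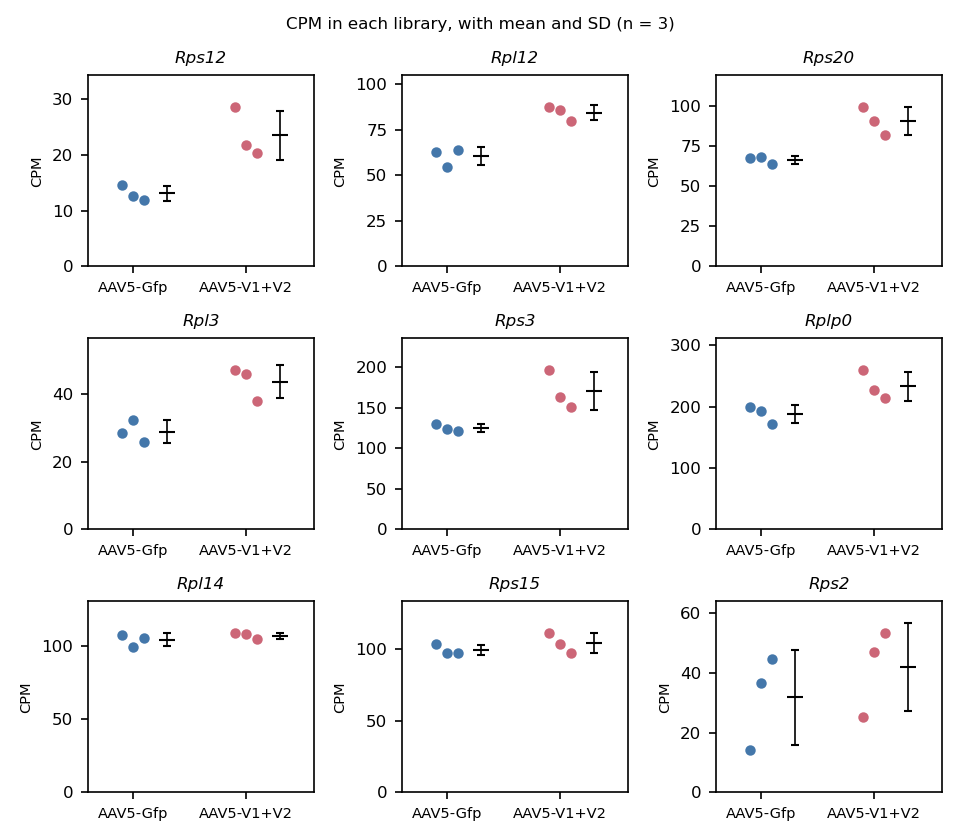
Points give the CPM of 9 ribosomal protein genes in each library, ordered by replicate number within a group, with the mean and SD (n = 3) beside them and y axes that start at 0. *Rps12*, *Rpl12*, *Rps20*, *Rpl3*, *Rps3*, and *Rplp0* have all AAV5-*V1+V2* libraries above all AAV5-*Gfp* libraries, and *Rpl14*, *Rps15*, and *Rps2* do not.

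In the large subunit, 44 of the 47 members were tested, and 16 rose and none fell (30 higher and 0 lower at an unadjusted p under 0.05, and 22 and 0 by DESeq2). Their median log2 fold change was 0.28. *Rpl12* (chromosome 2, 32961559 to 32965345), whose protein sits at the base of the stalk, had the smallest adjusted p of all members. It was at 63.0, 54.7, and 64.1 CPM in AAV5-*Gfp* replicates 1 to 3 and was at 87.3, 86.0, and 79.9 CPM in AAV5-*V1+V2* replicates 1 to 3 (0.48 ± 0.08, adjusted p = 0.0168). *Rpl3* (chromosome 15, 80077791 to 80091868), next to the catalytic centre, was at 28.4, 32.4, and 25.9 CPM and at 47.0, 45.8, and 38.0 CPM (0.59 ± 0.11, adjusted p = 0.0223). With the counts of its -ps pseudogene rows added, *Rpl3* was no longer called (0.17, adjusted p = 0.139, over all 15 alternatives 0.000209 to 0.139). *Rpl10* (X chromosome, 74270812 to 74273135), among the last proteins to join the subunit, was at 23.3, 24.7, and 19.9 CPM and at 45.1, 36.2, and 29.4 CPM (0.70 ± 0.16, adjusted p = 0.0317). It had the largest estimate of the large subunit.

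*Rpl5* and *Rpl11* encode the proteins that bind the 5S ribosomal RNA and, outside the ribosome, the p53 inhibitor MDM2. *Rpl5* rose from 122, 121, and 118 CPM to 165, 148, and 145 CPM (0.35 ± 0.07, adjusted p = 0.0252). *Rpl11* was at 86.7, 85.1, and 82.8 CPM in the controls and at 97.9, 96.6, and 95.3 CPM with AAV5-*V1+V2* (0.19 ± 0.06, adjusted p = 0.0615). The groups did not overlap in either gene, and the difference between the genes was not tested. *Rpl39*, in the wall of the exit tunnel, rose from 34.3, 33.9, and 31.1 CPM to 50.4, 46.2, and 41.1 CPM (0.47 ± 0.09, adjusted p = 0.0224). *Rpl9* rose from 81.7, 88.1, and 75.9 CPM to 117, 112, and 98.6 CPM (0.42 ± 0.09, adjusted p = 0.0274), and *Rpl13* from 22.8, 21.8, and 16.9 CPM to 38.0, 34.1, and 24.6 CPM (0.65 ± 0.18, adjusted p = 0.0496). *Rpl13* was the called member closest to the threshold.

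Other large subunit genes did not pass the test. *Rpl4*, also a protein of the exit tunnel, was at 217, 201, and 200 CPM and at 232, 225, and 219 CPM (0.13 ± 0.07, adjusted p = 0.222). *Rpl13a*, which also silences the translation of inflammatory mRNAs in myeloid cells, was at 158, 148, and 147 CPM and at 203, 177, and 167 CPM (0.27 ± 0.09, adjusted p = 0.0782). *Rpl38*, needed for the translation of some *Hox* mRNAs in the embryo, was at 55.0, 50.8, and 49.6 CPM and at 59.9, 62.6, and 58.5 CPM (0.22 ± 0.07, adjusted p = 0.0647). In these 3 genes the groups were separate. They overlapped in *Rpl14*, at 108, 98.9, and 105 CPM and at 108, 108, and 104 CPM (0.04 ± 0.06, adjusted p = 0.674). *Rpl41*, which encodes the shortest ribosomal protein, also overlapped, at 164, 161, and 155 CPM and at 179, 174, and 163 CPM (0.10 ± 0.07, adjusted p = 0.315). *Rpl29* had 40, 47, and 28 counts in the controls and 40, 30, and 28 with AAV5-*V1+V2*, with an estimate below 0 (-0.26 ± 0.25, adjusted p = 0.505).

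The 3 stalk genes were tested and 1 rose (2 higher and 0 lower at an unadjusted p under 0.05). *Rplp2* (chromosome 7, 141447370 to 141451585) was at 36.2, 39.6, and 35.5 CPM in the controls and at 60.9, 51.8, and 45.0 CPM with AAV5-*V1+V2* (0.50 ± 0.11, adjusted p = 0.0317). *Rplp1*, whose protein pairs with that of *Rplp2* on the stalk, was at 155, 143, and 144 CPM and at 168, 160, and 153 CPM (0.12 ± 0.07, adjusted p = 0.256), and its groups overlapped. *Rplp0*, the protein that anchors both, was at 199, 193, and 172 CPM and at 259, 227, and 214 CPM (0.31 ± 0.10, adjusted p = 0.0710). 

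**Figure D3:**
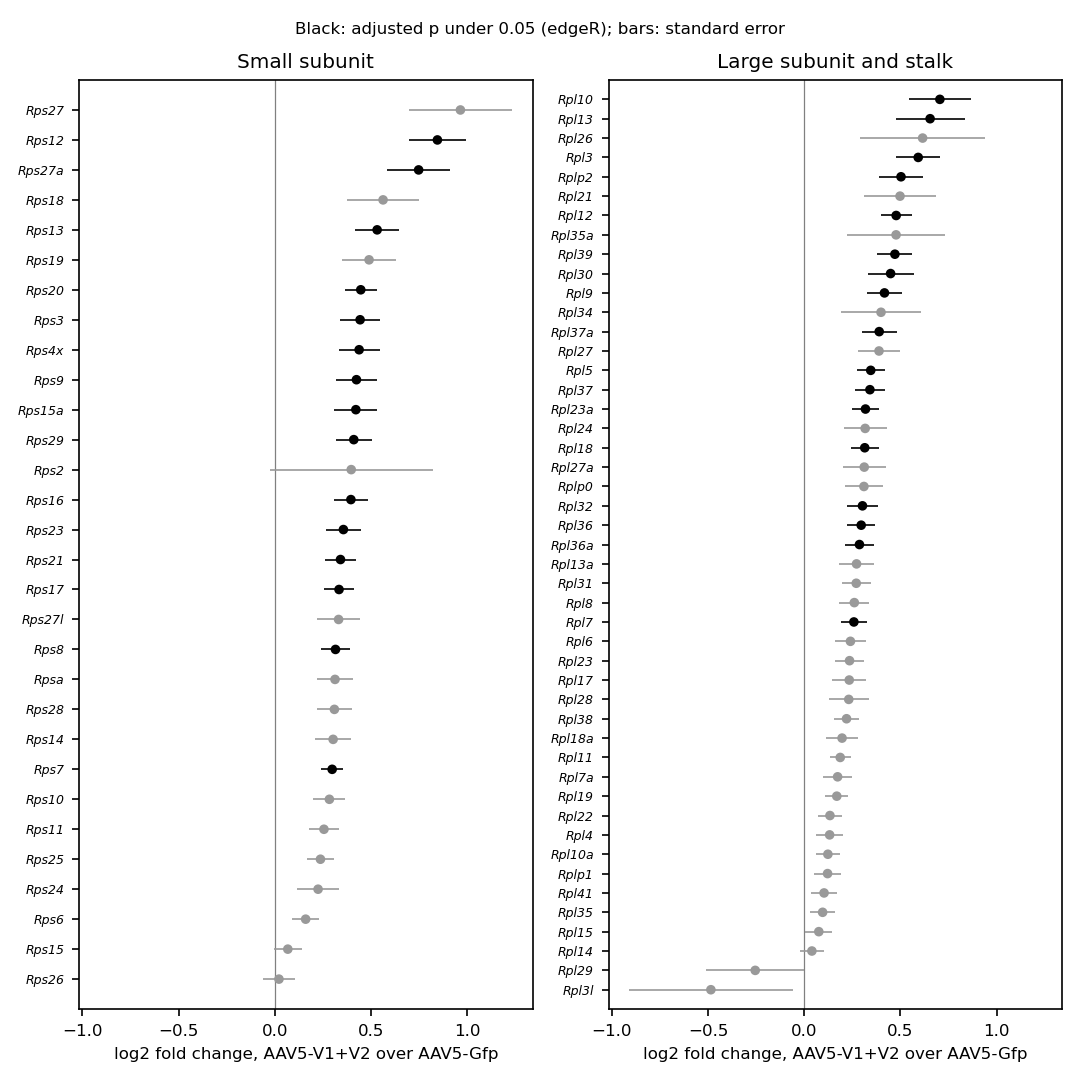
Points give the log2 fold change (AAV5-*V1+V2* over AAV5-*Gfp*) of 77 of the 78 members tested with its SE, for the small subunit on the left and the large subunit and stalk on the right. Black marks the 32 members with an adjusted p under 0.05, and all but *Rpl29* and *Rpl3l* lie to the right of 0.

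The libraries ranked alike across members. AAV5-*V1+V2* replicate 1 was the highest of the 6 for 62 of the 78 members, and AAV5-*Gfp* replicate 3 was the lowest for 59. A few members varied in another way, or more widely, within groups. They are outside the rule for named genes and were chosen after their values were seen. *Rps2* was at 14.1, 36.7, and 44.6 CPM in AAV5-*Gfp* replicates 1 to 3 and was at 25.3, 47.0, and 53.3 CPM in AAV5-*V1+V2* replicates 1 to 3, so that replicate 1 was the lowest of each group. *Rpl26* ran opposite to *Rps2* and in the common order, but with a wide spread, at 46.0, 35.1, and 21.2 CPM and at 68.0, 55.3, and 33.6 CPM. *Rpl35a* had 1 low control (30.1, 16.7, and 32.3 CPM), with 28.5, 42.5, and 38.9 CPM for AAV5-*V1+V2*. None of these passed the test (adjusted p = 0.535, 0.220, and 0.226). All 4 members on the X chromosome (*Rpl10*, *Rpl36a*, *Rpl39*, and *Rps4x*) rose, against 41.0% of all members tested and 10.1% of all genes. Their median log2 fold change was 0.45. With the offset for length and GC content none of these 4 was called. A link to the chromosome was not tested.

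Levels per kilobase of coding sequence in the controls ran from 2.41 CPM per kb for *Rpl29* and 9.60 for *Rpl34* to 429 for *Rps29* and 2054 for *Rpl41*, the paralogues aside. Counts per gene were divided by the coding length alone, which is 78 of 437 transcript bases for *Rpl41* and 171 of 390 for *Rps29*. Reads from outside the coding sequence would raise such values, so they do not rank the members by amount of mRNA. How the counting treated reads that match several genes is not given in the sources used here. For each member, the share of 50-base words of its coding sequence that also occur in transcripts of another gene (GENCODE M21, GRCm38) was therefore computed. In 27 members every word was shared, and *Rps27*, *Rps12*, *Rps27a*, *Rpl10*, and *Rpl13*, with the 5 largest estimates, are all among them. Of these 27, 13 rose (median 0.33). Of the 12 tested members with at most 50% of words shared, 4 rose (median 0.26).

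Several members shared little sequence. *Rps3* shared 8.05% of its words and rose, as described above. *Rps9* (43.3% shared) was at 115, 111, and 99.4 CPM in the controls and at 164, 145, and 127 CPM with AAV5-*V1+V2* (0.42 ± 0.11, adjusted p = 0.0387), and *Rps21* (44.8%) and *Rpl32* (35.7%) rose by 0.34 ± 0.08 and 0.30 ± 0.08 on the log2 scale (adjusted p = 0.0340 and 0.0441). *Rpl8* shared 8.69% and was at 99.6, 97.5, and 88.3 CPM and at 122, 112, and 107 CPM (0.26 ± 0.08, adjusted p = 0.0627). *Rps3*, *Rps9*, *Rps21*, and *Rpl32* are the 4 that were called among the 12 tested members with at most 50% shared. The rest of the 12 were not called. Among them were *Rpl4* (20.2% shared, 0.13 ± 0.07, adjusted p = 0.222), *Rpl22* (30.8%, 0.13 ± 0.06, adjusted p = 0.172), and *Rps15* (42.9%, 0.07 ± 0.07, adjusted p = 0.529). *Rps9*, *Rps21*, *Rpl32*, *Rpl8*, and *Rpl22* are outside the rule for named genes and were chosen after their values were seen. Across the 78 members the log2 fold change had a Pearson r of 0.31 and a Spearman rho of 0.17 with the share of words, and of -0.01 and -0.44 with the mean log2 CPM. These are descriptions over genes measured in the same 6 libraries. The 274 pseudogene rows ending in -ps held 0.0281% to 0.0416% of the counts, 122 of them had none in any library, and of the 30 tested 0 were called (3 higher at an unadjusted p under 0.05, 1 by DESeq2, and 0 by limma-voom). With these counts added to their parent genes, 31 members rose, and the call that was lost was that of *Rpl3*.

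**Figure D4:**
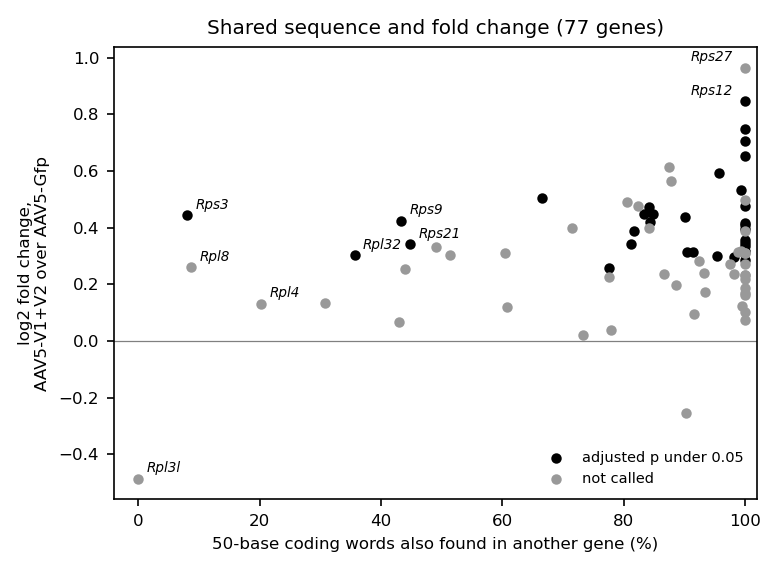
Each point is 1 of 77 members tested, with the percent of its 50-base coding words that are found in another gene on the x axis and its log2 fold change on the y axis. The 5 largest estimates, 0.65 to 0.96, are at 100%, while *Rps3* (8.05%) lies at 0.44, *Rpl8* (8.69%) at 0.26, and the muscle paralogue *Rpl3l*, which shares no word, at -0.49.

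Members with and without a tract counted near the annotated start had similar medians. Of the 28 with a tract, all tested, 8 rose, with a median log2 fold change of 0.31, and of the 30 tested members with a start window but no tract 13 rose, also with a median of 0.31. Where the tract covered the exact start, 3 of 13 rose (median 0.28). The split rests on the annotated start, while the mRNAs of this class are described above as beginning with a tract. A member without a counted tract may still have one elsewhere, as the run in the *Rps12* window shows is possible. Whether the tract itself makes a difference was therefore not tested. In the windows shown above, *Rpl35*, with the longest run of pyrimidines, was at 66.8, 60.6, and 60.5 CPM in the controls and at 67.5, 68.2, and 65.1 CPM with AAV5-*V1+V2* (0.10 ± 0.07, adjusted p = 0.335). *Rps15a* rose by 0.42 ± 0.11 on the log2 scale (adjusted p = 0.0451). These are amounts of RNA, and translation was not measured in these libraries.

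Ribosomal protein paralogues replace their parent in some tissues. *Rpl10l* and *Rpl39l*, known from the testis, were at or near 0, with 0 counts in every library and at most 1 count per library. The rows *Rpl6l* (at most 5 counts) and *Rps4l* (at most 1) are annotated as pseudogenes in GENCODE M21, and these 4 rows were the members not tested. *Rpl3l*, the form of striated muscle, had 13, 21, and 29 counts in the controls and 21, 16, and 9 with AAV5-*V1+V2* (-0.49 ± 0.42, adjusted p = 0.447). *Rps27l*, a p53 target, was at 9.88, 8.77, and 7.88 CPM and at 11.0, 11.4, and 11.0 CPM (0.33 ± 0.11, adjusted p = 0.0823). Set against *Rps27* in the same library, *Rps27l* was lower with AAV5-*V1+V2* by 0.62 on the log2 scale of the ratio (-0.62), and *Rpl3l* against *Rpl3* by 1.08 (-1.08). For *Rpl22l1* against *Rpl22* the difference was 0.29. Single libraries moved these values, to -0.37 for *Rps27l* without AAV5-*V1+V2* replicate 1, and to -0.70 for *Rpl3l* and 0.17 for *Rpl22l1* without AAV5-*Gfp* replicate 3. With 3 libraries per group an exact permutation test cannot go below p = 0.1, and these 3 pairs gave two-sided exact p of 0.1, 0.1, and 0.2 (adjusted over the 3 pairs, 0.15, 0.15, and 0.2).

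Ribosomal protein genes that the symbol rule missed were similar. Of 8, 3 rose and none fell, with a median log2 fold change of 0.31 (5 higher and 0 lower at an unadjusted p under 0.05). With the offset for length and GC content the median was 0.09, with 1 higher and 1 lower. *Rps3a1* was at 106, 114, and 106 CPM in the controls and at 165, 147, and 130 CPM with AAV5-*V1+V2* (0.44 ± 0.10, adjusted p = 0.0282). *Rack1*, a scaffold protein of the small subunit that binds protein kinase C, was at 99.4, 96.6, and 84.5 CPM and at 162, 133, and 117 CPM (0.56 ± 0.13, adjusted p = 0.0311). In both, all libraries of a group were apart from the other. *Rps27rt*, a retrogene of *Rps27*, had 5, 8, and 3 counts in the controls and 21, 15, and 12 with AAV5-*V1+V2* (1.54 ± 0.42, adjusted p = 0.0492), and whether the counting told it from its near copies is not given in the sources used here. *Rpl22l1* was at 8.74, 10.2, and 6.95 CPM and at 12.0, 11.9, and 10.5 CPM (0.41 ± 0.15, adjusted p = 0.104).

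For the rest of the translation machinery, the shares called were close to those of all genes (10.1% higher and 5.27% lower) or below them. Of 10 genes listed for elongation factors and related proteins, 1 rose and 1 fell (median 0.05). The gene that rose was *Tpt1*, which does not itself encode an elongation factor and whose mRNA also carries a pyrimidine tract. It went from 142, 140, and 141 CPM to 187, 168, and 163 CPM (0.29 ± 0.07, adjusted p = 0.0396). *Eef1a2*, the form of elongation factor 1A in neurons and muscle, fell from 131, 127, and 143 CPM to 87.8, 115, and 97.2 CPM (-0.42 ± 0.11, adjusted p = 0.0438). *Eef1b2* and *Eef1d*, both exchange factors of elongation factor 1A, had log2 fold changes of 0.22 (adjusted p = 0.0630) and 0.16 (adjusted p = 0.146). None of 30 initiation factor genes was called by edgeR or limma-voom (3 higher and 0 lower at an unadjusted p under 0.05, and 1 higher by DESeq2), with a median of 0.00. *Eif1*, which selects the start codon, was at 18.8, 23.5, and 21.4 CPM and at 30.9, 30.3, and 23.6 CPM (0.41 ± 0.13, adjusted p = 0.0709), and *Eif3f* had 0.34 ± 0.11 (adjusted p = 0.0799).

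Among 39 ribosome assembly factors tested, 3 rose (7.69%, under the 10.1% of all genes) and none fell (5 and 2 at an unadjusted p under 0.05), with a median of 0.05. *Fbl*, the methyltransferase of ribosomal RNA, rose from 3.07, 2.74, and 2.50 CPM to 5.38, 4.30, and 3.94 CPM (0.71 ± 0.17, adjusted p = 0.0361). *Ddx21*, an RNA helicase of the nucleolus, rose by 0.31 ± 0.08 (adjusted p = 0.0388) and *Heatr1*, of the small subunit processome, by 0.29 ± 0.07 (adjusted p = 0.0427) on the log2 scale. The 14 genes of RNA polymerase I and its factors had 0 calls by edgeR and limma-voom (5 higher and 0 lower at an unadjusted p under 0.05, and 1 higher by DESeq2) and a median of 0.08, with *Taf1c* at 0.45 ± 0.14 (adjusted p = 0.0708). Of 17 genes that regulate ribosome production or the translation of these mRNAs, 2 rose (11.8%, close to the 10.1% of all genes) and 1 fell (median 0.04). The ribosomal S6 kinases of the RSK family went both ways, with *Rps6ka1* at 14.6, 13.3, and 12.1 CPM in the controls and at 31.4, 23.3, and 20.1 CPM with AAV5-*V1+V2* (0.90 ± 0.17, adjusted p = 0.0200). *Rps6ka3* fell from 159, 169, and 186 CPM to 134, 140, and 141 CPM (-0.31 ± 0.08, adjusted p = 0.0405). *Mycl*, a MYC family transcription factor, rose from 0.868, 0.952, and 0.865 CPM to 2.10, 1.71, and 1.52 CPM (0.98 ± 0.20, adjusted p = 0.0244).

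The host genes of small nucleolar RNAs, several of which also begin with a pyrimidine tract, had a median of 0.45 over 9 genes, all with estimates above 0. However, 1 of the 9 was called (11.1%, against 10.1% of all genes, 5 at an unadjusted p under 0.05, and 2 by DESeq2). It was *Zfas1*, at 4.96, 5.14, and 4.45 CPM in the controls and at 7.02, 6.76, and 6.15 CPM (0.45 ± 0.12, adjusted p = 0.0472). *Snhg12* was at 0.49 ± 0.14 (adjusted p = 0.0551) and *Snhg5* at 0.47 ± 0.16 (adjusted p = 0.0888). *Epb41l4aos* was at 0.70 ± 0.25 (adjusted p = 0.101). With the offset for length and GC content the median of this list was 0.12, with 0 higher and 1 lower. By contrast, the proteins of the mitochondrial ribosome, encoded by 77 tested nuclear genes, had a median of -0.08, with estimates above 0 in 16. None rose and 1 fell (1 higher and 7 lower at an unadjusted p under 0.05, and 0 and 2 by DESeq2). The gene that fell was *Mrpl53*, from 11.4, 12.0, and 9.23 CPM to 6.53, 6.82, and 4.17 CPM (-0.90 ± 0.20, adjusted p = 0.0312). With the offset for length and GC content the median of this list was -0.23 (all genes, -0.10). That fit had 0 of the list higher and 12 lower, against 2156 lower of all 18593 genes. The mitochondrial list was added once the table had been read.

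**Figure D5:**
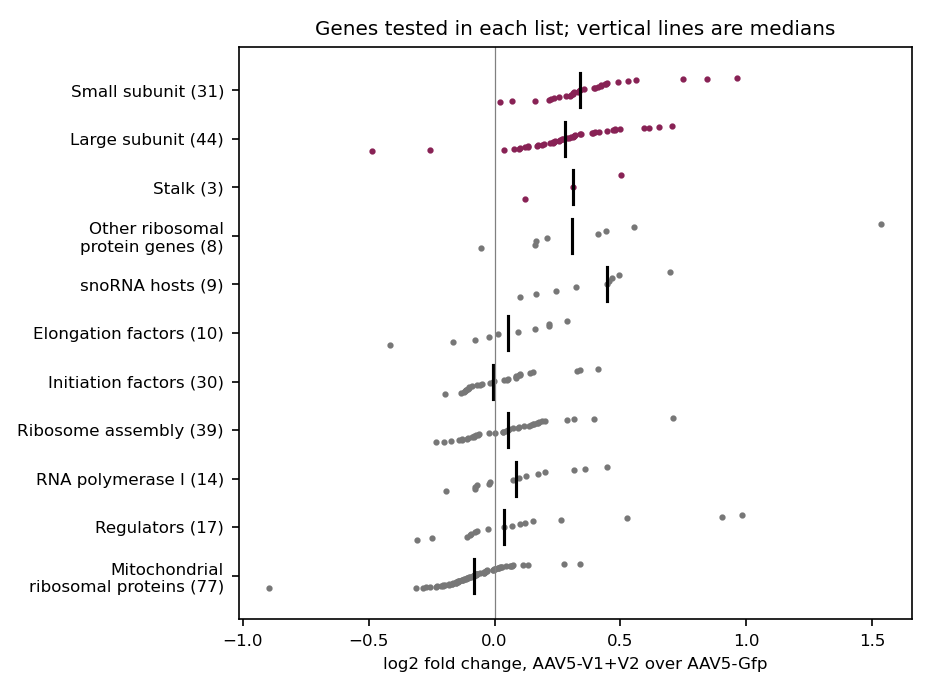
Points are genes, the x axis is the log2 fold change of AAV5-*V1+V2* over AAV5-*Gfp*, vertical lines are medians, and the number of genes tested stands beside each list. The small subunit (0.34), large subunit (0.28), stalk (0.31), ribosomal protein genes outside the rule (0.31), and small nucleolar RNA hosts (0.45) had the highest medians in this fit (with the offset for length and GC content, 0.13, 0.07, 0.12, 0.09, and 0.12). The other lists had medians between -0.08 and 0.08 (with this offset, -0.23 to -0.01).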

How the data were processed

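RNA was extracted from microinjected DRGs with a column kit, and stranded total RNA libraries were sequenced. The table that the authors deposited holds raw counts of reads for each gene symbol, with a column for each of the 6 libraries (3 AAV5-*Gfp* and 3 AAV5-*V1+V2*), aligned to GRCm38 (mm10) according to the submitters' processing notes. The aligner, the counting program, the annotation, the use of strand, and the handling of reads that match several genes are not given in the sources used here. These choices matter for ribosomal protein genes, since pseudogene copies share their sequence. Total counts of 32025612 to 34764282 set the precision, and intervals from counts would cover counting error only. For the paralogue ratios, a paralogue with at most 3 counts in each of the 6 libraries was taken to be at the floor. The chi-square per degree of freedom between libraries of a group was 8.27 to 48.9, so no pair agreed within sampling noise.

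The quasi-likelihood test of edgeR 4.0.16 (R 4.3.3; glmQLFit, glmQLFTest) was run after filterByExpr, which kept 18593 of 48440 rows, and TMM scaling. A call required an adjusted p under 0.05 by the method of Benjamini and Hochberg over all rows tested. CPM values use TMM-scaled library sizes. The SE is the absolute log2 fold change divided by the square root of F. The script was tested on simulated counts. Alternatives were RLE, upper quartile, and total-count scaling, no filter, DESeq2 1.42.0, limma-voom (limma 3.58.1), a replicate block, an offset for transcript length and GC content (known for 96.3% of the genes tested), pseudogene counts added to their parents, other thresholds, and leaving out each library. Gene positions, coding lengths, and shared words came from GENCODE M21 (GRCm38), and start windows from RefSeq (GRCm38.p6).

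The members and lists were chosen with earlier results of these data known. Named members were the 10 called ones with the smallest adjusted p, the 5 largest and 5 smallest log2 fold changes, the 5 with the highest mean CPM, a set fixed by role, and the paralogues. In other lists, genes with the smallest p were named (at most 4). Paralogue ratios were compared by exact permutation with a pseudocount of 0.5. The injected transcript itself was not analysed here, and 1 member that enters the counts and medians is not reported here by name.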

Additional observations from a re-analysis of the deposited data

How the results depend on the processing

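Between 26 and 48 members (32 in the reported fit) were called higher under RLE, upper quartile, and total-count scaling, no filter, DESeq2, limma-voom, and pseudogene counts added, and 0 were lower in all of these. The offset for transcript length and GC content left 5 higher and 2 lower, with a median log2 fold change over the members tested of 0.083. It reversed *Rps15* (-0.26, adjusted p = 0.0276, over all 15 alternatives 0.0276 to 0.830) and *Rpl41* (-0.26, adjusted p = 0.0303, over all alternatives 0.0303 to 0.534). The offset removes any difference between groups that follows length or GC content. Its fit also held an intercept for each library, so it shifted genes as a whole too. The median log2 fold change over all genes was -0.000298 in the reported fit and -0.0973 with the offset. The fall in calls and the 2 reversals therefore cannot be credited to length and GC content alone. What part of these differences is technical was not tested. Over all genes it gave 2156 lower (1675 higher) and DESeq2 gave 1606 lower. Among the 127 other translation genes (10 higher and 2 lower), it gave 6 and 6, and total-count scaling gave 0 lower. Total-count scaling raised the share of higher calls among all called genes from 65.6% to 74.6%, and the offset set it at 43.7%. Other thresholds gave 54 members (adjusted p under 0.1) and 58 (unadjusted p under 0.05). With 1 library left out, the number of members called was 0 to 43, all higher. In the same fits, 12 to 2474 of all genes were higher and 0 to 1446 lower, as were 0 to 17 and 0 to 2 of the other translation genes. Without AAV5-*V1+V2* replicate 3, 43 members were called. The fall to 0 without a control library went with the fall over all genes, in fits with 2 libraries in that group.

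Same-numbered libraries of the groups had correlations of 0.04, 0.07, and 0.11 in their deviations from the group means. Differently numbered ones had -0.10 to 0.04. All of these values were small, and the numbers were not taken as pairs. With 3 libraries per group, such correlations cannot decide whether the numbers mark pairs. A fit with the replicate number as a block called 43 members higher and 0 lower, 31 of the 32 among them.

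Over 32 named members and 15 alternatives, 469 of 480 estimates kept their sign, 68 calls were lost (55 of them with 1 library left out), and 26 were gained. The share of counts and the paralogue ratios kept their direction in every alternative run. With 1 library left out, the ratio differences ranged from -0.79 to -0.37 for *Rps27l*, from -1.36 to -0.70 for *Rpl3l*, and from 0.17 to 0.43 for *Rpl22l1*. Depth limits *Rpl10l*, *Rpl39l*, *Rpl6l*, and *Rps4l*, whose counts were at or near the floor.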

Other observations

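Short genes as such were close to 0. Protein-coding genes outside the set with transcripts of up to 1000 bases (1190 tested) had a median log2 fold change of 0.00, and 11.0% of them were called higher and 39 lower. Among the 157 with up to 500 bases, the median was 0.02 and 16.6% were higher. Within the short genes, those with over 60% GC (110 genes) had a median of 0.13, with 19 higher and 0 lower by edgeR, and the 256 genes between 45% and 50% GC had a median of -0.05.

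Mitochondrial transcripts took 11.8% to 12.5% of counts in the controls and 11.2% to 12.4% with AAV5-*V1+V2*, so the share of counts on ribosomal protein genes and that on mitochondrial transcripts did not rank the libraries in the same order.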
